A study of Mus musculus with 9 samples.

Results

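The genes described here are 9 core components of insulin and IGF receptor signalling, taken by symbol from a table of 23329 gene rows measured in mouse pancreatic islets: the receptors Insr and Igf1r, the receptor substrates Irs1 and Irs2, the PI3-kinase subunit Pik3r1, the kinases Akt1 and Akt2, and the transcription factors Foxo1 and Foxo3. All 9 symbols were found and all 9 passed the filter on low counts. The male islets gave 9 libraries of polyadenylated RNA. The 4 libraries titled as controls carry the genotype label Pdx1+/-, so that the comparison group itself is heterozygous for Pdx1, a homeodomain transcription factor of the pancreas and the beta cell. The 5 libraries titled as mutants carry the genotype label Pdx1A4, which the labels do not explain. No age, treatment or pooling of animals is given, and the labels tie no library to an animal of its own, so that each p-value reflects only how these libraries vary, possibly for technical reasons.

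Insulin and the insulin-like growth factors bind receptor tyrosine kinases, which phosphorylate the IRS docking proteins. IRS proteins recruit PI3-kinase through its regulatory subunit, the lipid PIP3 that it makes activates AKT, and AKT phosphorylates FoxO factors, which then leave the nucleus. Beta cells both secrete insulin and carry its receptor, and Irs2 in particular is known for its part in keeping up beta cell mass. FoxO factors are known to induce Irs2 and Insr when insulin signalling is low.

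The 9 libraries held 6092010 to 9163253 counts. The targeted gene Pdx1 had 36.0, 32.0, 23.8 and 26.2 CPM (counts scaled to library size after TMM, as throughout) in the 4 controls in order of number, and 15.6, 4.18, 7.13, 17.8 and 19.9 CPM in the 5 mutants, a log2 fold change of -1.18 (SE 0.40, edgeR quasi-likelihood test, adjusted p = 0.0461). Leaving out any control, mutant 1 or mutant 3 (6 of 9 libraries) lost that call, where the adjusted p reached 0.113. Marker levels differed between the groups. Summed over 12 beta cell markers, the level was 108365 to 179909 CPM in controls and 859 to 62092.5 in mutants, with 3 of 11 tested markers lower and 0 higher (Mafa, not tested, had 0 counts in every control). Over 15 acinar markers it was 19354 to 45059 CPM in controls and 108343 to 239122 in mutants, with 14 of 15 higher. For 9 ductal markers the sums were 3362 to 10385 and 10525 to 17941, with 4 higher and 1 lower. Alpha cell markers summed to 8575 to 24192 and 91.4 to 8382 CPM, delta cell markers to 1126 to 1411 and 13.1 to 558, and the gamma cell marker Ppy to 7229 to 9978 and 59.6 to 5344. Sums of endothelial markers were 27.1 to 77.1 and 1.35 to 44.0 CPM, of macrophage markers 48.0 to 433 and 265 to 549, and of stellate cell and fibroblast markers 40.7 to 98.6 and 0.674 to 103. The macrophage sum was mostly Cd14 (37.9 to 421 CPM in controls, 207 to 529 in mutants), and 0 of 4 tested macrophage markers passed. Transcripts of 7 hormone genes held 16.9% to 21.0% of counts in controls, and 7.99%, 0.0691%, 1.21%, 4.70% and 7.27% in mutants 1 to 5. Fewer cells of a type and less RNA per cell cannot be told apart in such bulk samples.

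Igf1r, Irs1 and Irs2 were each about 3-fold lower in mutant islets, with every mutant library below every control. Foxo1 was about 2-fold lower with overlapping groups. Akt1, Akt2, Pik3r1 and Foxo3 did not pass, and Insr, which also did not pass, had its highest levels in the 2 mutant libraries with the least hormone RNA. Of the 9 genes 0 were called higher and 4 lower, where 20.6% of the 12402 genes tested were called higher and 11.8% lower (edgeR, adjusted p under 0.05). Their median log2 fold change was -0.42, against 0.04 over all genes tested. In 3 of the 9 every mutant lay below every control, where 14.7% of all genes did so, and in 0 every mutant lay above, against 18.5%, and 33.2% of all genes had groups that did not overlap in either direction.

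**Figure D1:**
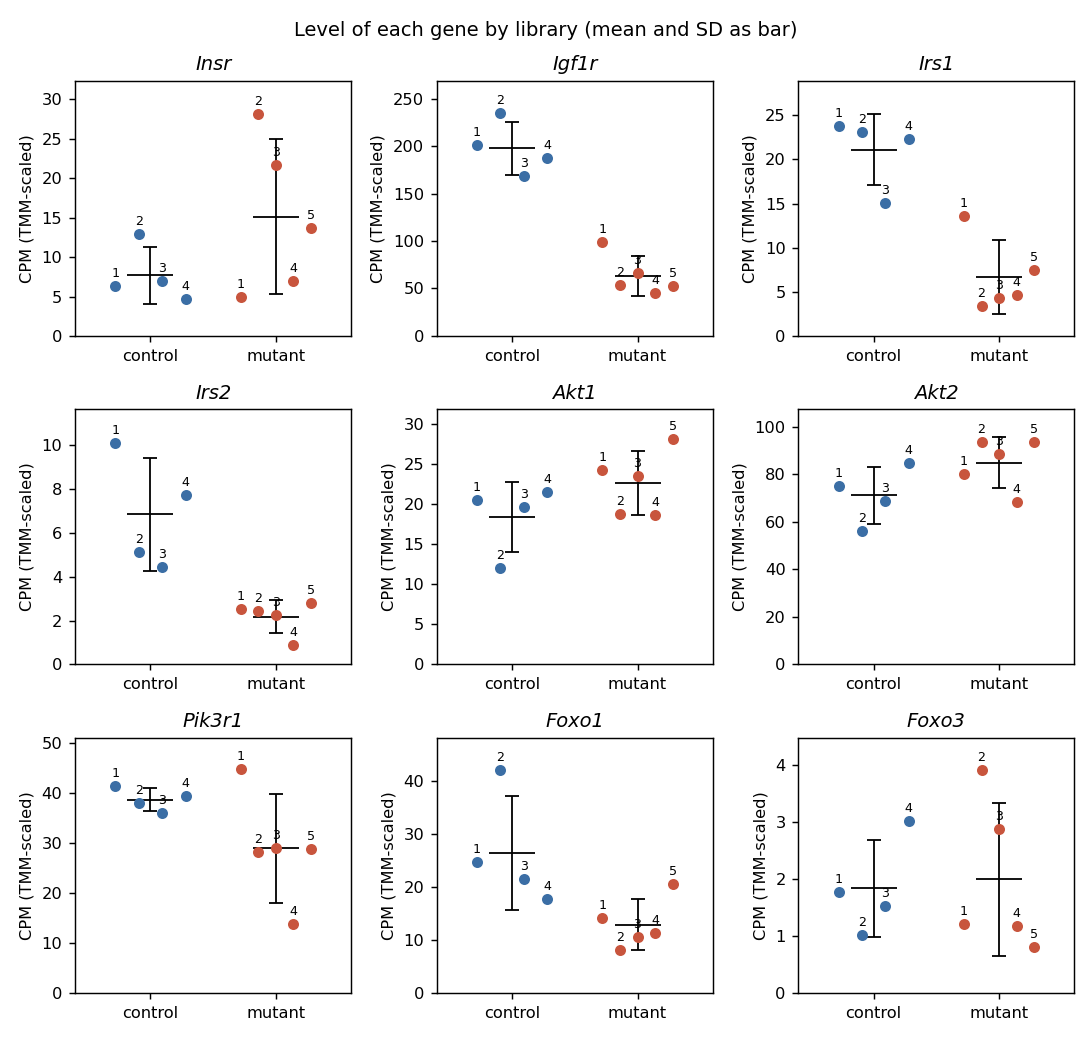
Level of each of the 9 genes in CPM (vertical axes, from 0) in the 4 control and 5 mutant libraries; each point is a library with its replicate number, the horizontal bar is the group mean and the error bar the SD. Igf1r, Irs1 and Irs2 have no mutant library at or above a control, while Insr spans 4.96 to 28.2 CPM among mutants.

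The promoters of Irs1 and Irs2 are shown first, because their upstream sequences share 2 stretches of 10 bases. Igf1r fell by as much as these substrates (log2 fold change -1.64), and its window held none of the motifs described below. Whether the shared bases bear on the levels was not tested. Each is the 250 bases before the RefSeq transcription start (GRCm38.p6), 5′ to 3′ on the gene's strand (both genes lie on the minus strand), at chr1:82291440-82291689 for Irs1 and chr8:11008930-11009179 for Irs2. Capitals mark the E-box CACGTG, the site of bHLH factors such as the clock and TFE families, and TGTTTTG, the core of the insulin response sequence that FoxO factors are known to bind.
Irs1: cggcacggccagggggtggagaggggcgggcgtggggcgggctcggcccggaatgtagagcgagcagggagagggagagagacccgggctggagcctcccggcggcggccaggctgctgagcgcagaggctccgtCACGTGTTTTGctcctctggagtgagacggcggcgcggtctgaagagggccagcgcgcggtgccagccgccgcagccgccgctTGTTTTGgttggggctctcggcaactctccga
Irs2: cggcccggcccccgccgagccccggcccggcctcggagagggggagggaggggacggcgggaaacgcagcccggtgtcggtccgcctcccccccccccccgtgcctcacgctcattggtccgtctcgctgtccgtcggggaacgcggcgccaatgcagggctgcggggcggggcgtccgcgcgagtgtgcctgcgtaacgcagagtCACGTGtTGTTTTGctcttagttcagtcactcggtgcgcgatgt

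In Irs1 the E-box begins 115 bases before the start site and overlaps an insulin response core that begins 111 bases before it, and a second such core begins 32 bases before it. In Irs2 the E-box begins 44 bases and the insulin response core 37 bases before the start. In GENCODE the first bases of Irs2 (11008458) and Igf1r (67952827) lie further downstream. Distances and matches given here therefore hold for the RefSeq starts only. The longest runs common to both windows were GTCACGTGTT and TGTTTTGCTC, 10 bases each, which occur on either strand in 23 and 21 of 32851 promoter windows of the same length. A shared run of 9 bases, GGAGAGGGG, was in 1.41% of windows. The E-box was in 6.02% of these windows, the insulin response core (both strands) in 5.56%, and both with starts within 20 bases of each other in 15 windows (0.0457%). The other motifs searched, on both strands, were the forkhead core GTAAACA (3.17% of windows) and TGACG, the core of the cAMP response element (17.8%), which overlaps the Irs1 E-box on the opposite strand. Of the 8 genes with a window, only Irs1 and Irs2 held an E-box or an insulin response core, and the first Akt1 window held the forkhead core. The cAMP response core was in windows of Irs1, Akt2, Pik3r1 and Foxo3, and the single windows of Igf1r and Foxo1 held none of the 4 motifs. Motifs and windows were picked after the sequences and the counts had been seen, and a match is a description of the letters, not of a bound site.

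The receptors moved differently. Igf1r (ENSMUSG00000005533.10, chromosome 7, 67952827 to 68233668, GRCm38), the receptor for IGF1 and IGF2, had 202, 234, 168 and 187 CPM (controls 1 to 4) and 98.8, 53.8, 66.4, 44.9 and 52.3 CPM (mutants 1 to 5). Every mutant was lower than the lowest control, and mutant 1 was the nearest to it. The group values were 198 ± 27.9 (SD, n = 4) and 63.3 ± 21.3 CPM (SD, n = 5), and the log2 fold change was -1.64 (SE 0.23, edgeR adjusted p = 0.00232). It lay between -1.87 and -1.58 in 17 alternative fits without a marker score and passed in each. With the endocrine score (mean log2 CPM of Ins1, Ins2, Iapp, Gcg, Sst and Ppy) as a covariate it was -1.50, and Igf1r alone of the 9 genes passed there (edgeR adjusted p = 0.0200). In the fit with the acinar score (mean log2 CPM of the 15 acinar markers) Igf1r was at 0.07, and 0 of the 9 genes passed. The group explained 95.1% of the variance of that score.

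Insr (ENSMUSG00000005534.10, chromosome 8, 3122061 to 3279617), the insulin receptor gene, had 6.29, 12.9, 6.91 and 4.69 CPM (controls 1 to 4) and 4.96, 28.2, 21.7, 7.02 and 13.6 CPM (mutants 1 to 5). Mutants 2, 3 and 5 were above every control, mutant 4 was within the control range, and mutant 1 was near its lower end. For Insr the log2 fold change did not pass, at 0.98 (SE 0.52, edgeR adjusted p = 0.165). Without mutants 2 and 3, whose hormone shares were lowest, it was 0.11 (edgeR adjusted p = 0.869). In those 2 libraries the 6 hormone genes averaged -7.64 and -3.57 log2 units from the control mean, while Insr was 1.93 and 1.56 above it. The acinar list was 2.87 and 2.89 above it there, and between 2.18 and 3.10 in all 5 mutants. With the endocrine score, described above, as a covariate, Insr had a log2 fold change of -0.03 (edgeR adjusted p = 0.979).

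Because a ratio of 2 genes within a library does not depend on library scaling, 5 ratios were compared by exact permutation. Insr had 0.0384 ± 0.0130 counts per Igf1r count (controls, SD, n = 4) and 0.264 ± 0.179 (mutants, SD, n = 5). The ratio was 0.0315, 0.0552, 0.0414 and 0.0254 (controls 1 to 4) and 0.0508, 0.524, 0.327, 0.158 and 0.262 (mutants 1 to 5). Mutants 2 to 5 were above every control, and mutant 1 fell within the control range. The mean log2 ratio was 2.48 higher in mutants (exact two-sided permutation p = 0.0238), which did not pass adjustment over the 5 ratios (Benjamini-Hochberg adjusted exact p = 0.119). Without mutants 2 and 3 the difference was 1.80 (exact permutation p = 0.0571, adjusted p = 0.286).

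The other ratios were closer. Akt2 had 3.93 ± 0.521 counts per Akt1 count (controls, SD, n = 4) and 3.81 ± 0.682 (mutants, SD, n = 5; difference of log2 ratios -0.05, exact permutation p = 0.675). Irs2 had 0.324 ± 0.0853 counts per Irs1 count in controls and 0.408 ± 0.229 in mutants (difference 0.18, exact permutation p = 0.706). In mutants 2 and 3 that ratio was 0.725 and 0.544, above every control, and in mutants 1 and 4 it was 0.191 and 0.200, below every control. Foxo1 to Foxo3 differed by -1.005 (exact permutation p = 0.286) and Pik3r1 to the catalytic subunit gene Pik3ca by -0.41 (exact permutation p = 0.373), each within the spread of the libraries. Without control 2 the latter difference was -0.85 (exact permutation p = 0.0179, adjusted p = 0.0893), and without mutants 2 and 3 that of Foxo1 to Foxo3 was -0.08 (exact permutation p = 0.943). With a p above the threshold in each, none of these 4 tests shows that a ratio is the same in both groups.

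**Figure D2:**
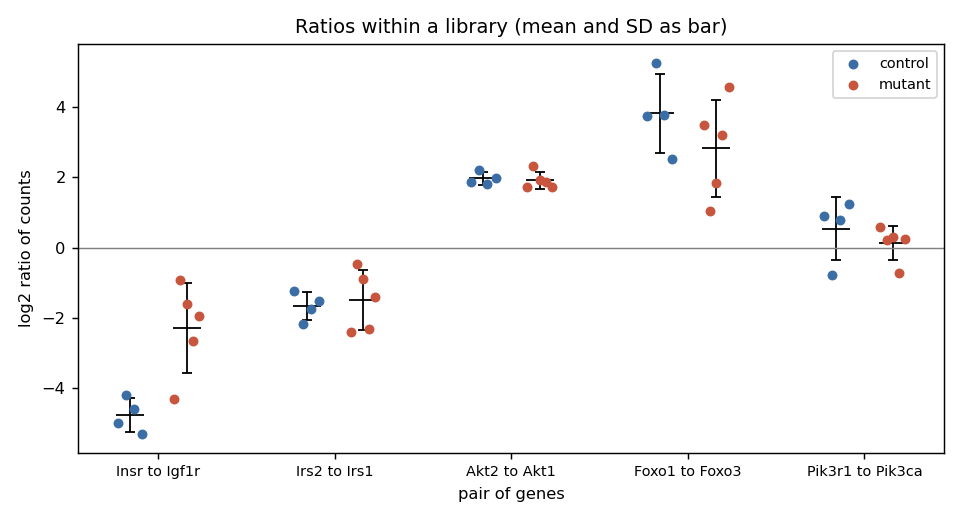
Log2 ratio of counts of 5 gene pairs (vertical axis) in each library, with group mean (bar) and SD (error bar); blue points are controls and red points mutants. The Insr to Igf1r ratio is the one pair in which 4 of 5 mutants lie above all controls, and the groups overlap in all 5 pairs.

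The receptor substrates fell. Irs1 (ENSMUSG00000055980.2, chromosome 1, 82233101 to 82291416), a docking protein phosphorylated by both receptors, had 23.8, 23.1, 15.1 and 22.4 CPM (controls 1 to 4) and 13.6, 3.37, 4.25, 4.68 and 7.49 CPM (mutants 1 to 5). No mutant reached the lowest control, although mutant 1 came within 2 CPM of control 3. Irs1 had a log2 fold change of -1.65 (SE 0.39, edgeR adjusted p = 0.0120). It passed in all 17 alternative fits without a marker score, between -2.09 and -1.34. In the fit with the endocrine score it was -1.05 and did not pass (edgeR adjusted p = 0.119).

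Irs2 (ENSMUSG00000038894.7, chromosome 8, 10984681 to 11008458), the substrate best known for its role in beta cell growth and survival, was measured at low depth. Its counts were 74, 35, 38 and 69 (controls 1 to 4) and 21, 18, 15, 6 and 21 (mutants 1 to 5), which is 10.1, 5.12, 4.45 and 7.71 CPM and 2.54, 2.43, 2.28, 0.878 and 2.81 CPM. All 5 mutants were below all 4 controls, and mutant 4 was the lowest, with a 95% Wilson interval of 0.402 to 1.92 CPM. Such intervals cover counting error within a library only, not the spread between libraries. Reads carry no molecular identifiers by which copies could be told apart. Irs2 had a log2 fold change of -1.64 (SE 0.38, edgeR adjusted p = 0.0114), and it passed in the 17 alternative fits without a marker score, between -1.85 and -1.39. With that same endocrine score in the fit Irs2 was at -1.73 and did not pass (edgeR adjusted p = 0.0619). The opposite-strand transcript 9530052E02Rik shares exon bases with Irs2 in GENCODE, and had 4 to 9 counts in controls and 0 or 1 in mutants. Whether counting used strand is not given, so reads in the shared bases cannot be assigned. Irs1 and Foxo1 likewise share exon bases with opposite-strand genes, Gm9747 and Gm20402, which have no row among the counts used here, and the same limit holds for them.

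Irs1 and Irs2 did not fall in step within the mutants. Mutant 1 had a smaller drop of Irs1 (-0.61 log2 units from the control mean) than of Irs2 (-1.27), and mutant 2 a larger one (-2.53 against -1.33). Irs1 was lowest in mutants 2 and 3 (3.37 and 4.25 CPM), which have the least hormone RNA. Mutant 4 was close to them, at 4.68 CPM, with a hormone share of 4.70%. Irs2 lay between 2.28 and 2.81 CPM in mutants 1, 2, 3 and 5, whose hormone shares ran from 0.0691% to 7.99%.

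**Figure D3:**
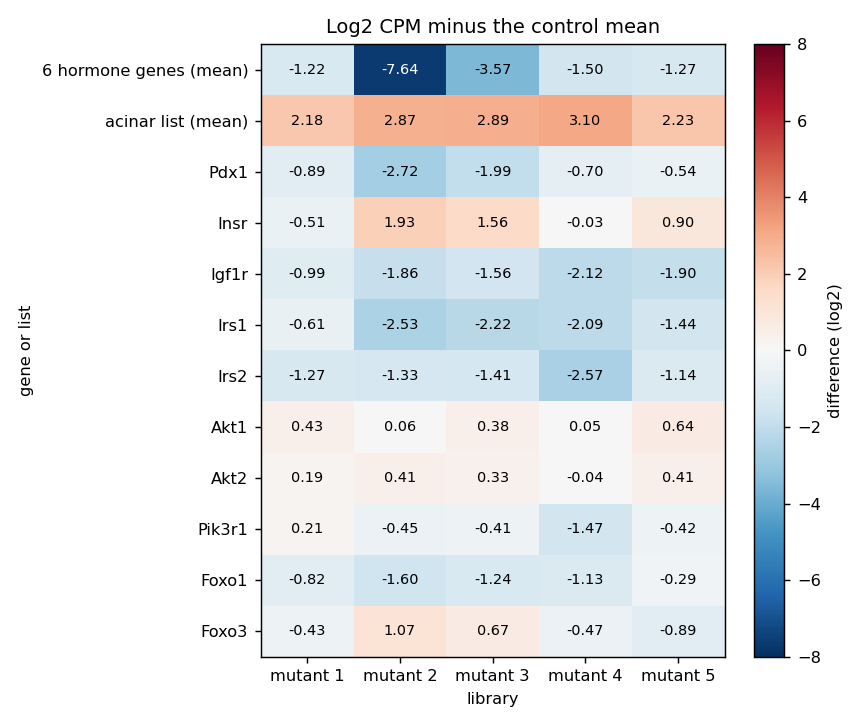
Log2 CPM of each of the 5 mutant libraries minus the mean of the 4 controls, for the mean of 6 hormone genes, the mean of the acinar list, Pdx1 and the 9 genes; red is higher and blue lower than controls. The hormone row runs from -7.64 in mutant 2 to -1.22 in mutant 1, while the Irs2 row runs from -2.57 to -1.14 and the Akt2 row from -0.04 to 0.41.

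For Pik3r1, Akt1 and Akt2 no difference passed. Pik3r1 (ENSMUSG00000041417.15, chromosome 13, 101680563 to 101768217), which encodes the p85 alpha regulatory subunit of PI3-kinase, had 41.4, 37.9, 36.0 and 39.5 CPM (controls 1 to 4) and 44.8, 28.2, 29.0, 13.8 and 28.8 CPM (mutants 1 to 5). Mutant 1 was above every control and the other 4 mutants were below every control. The Pik3r1 log2 fold change was -0.42 (SE 0.27, edgeR adjusted p = 0.241), and without mutant 1 it was -0.64 (edgeR adjusted p = 0.0572). Akt1 (ENSMUSG00000001729.14, chromosome 12, 112653821 to 112674884), the widely expressed AKT isoform, had 20.5, 12, 19.7 and 21.5 CPM in controls and 24.2, 18.7, 23.5, 18.6 and 28.1 in mutants. Its log2 fold change was 0.30 (SE 0.21, edgeR adjusted p = 0.284), and 0.05 without control 2, whose value was the lowest.

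Akt2 (ENSMUSG00000004056.15, chromosome 7, 27591552 to 27640826), the AKT isoform known for insulin's metabolic actions, had 75.1, 56.2, 68.6 and 84.6 CPM (controls 1 to 4) and 80.2, 93.4, 88.6, 68.5 and 93.7 CPM (mutants 1 to 5). The groups overlapped, with mutant 4 below 3 of the 4 controls. For Akt2 the log2 fold change was 0.25 (SE 0.16, edgeR adjusted p = 0.226), and with RLE scaling it was 0.15.

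Foxo1 (ENSMUSG00000044167.6, chromosome 3, 52268336 to 52353221), the main FoxO factor of beta cells, had 24.6, 42.0, 21.4 and 17.7 CPM (controls 1 to 4) and 14.05, 8.09, 10.5, 11.3 and 20.5 CPM (mutants 1 to 5). Control 2 was the highest, and mutant 5 lay above control 4, so the groups overlapped. Foxo1 had a log2 fold change of -1.03 (SE 0.32, edgeR adjusted p = 0.0329). The call was lost without control 1, control 2 or mutant 3 (edgeR adjusted p = 0.0670, 0.0625 and 0.0596), without mutants 2 and 3 together (0.0912) and with the endocrine score in the fit (-0.58, edgeR adjusted p = 0.334).

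Foxo3 (ENSMUSG00000048756.11, chromosome 10, 42181841 to 42276755), a related factor, had only 6 to 29 counts per library. Its level was 1.78, 1.02, 1.52 and 3.02 CPM (controls 1 to 4) and 1.21, 3.91, 2.88, 1.17 and 0.803 CPM (mutants 1 to 5). Mutants 2 and 3 were the highest of the mutants, and the groups overlapped fully. For Foxo3 the log2 fold change was 0.11 (SE 0.54, edgeR adjusted p = 0.892), and it was -0.85 without mutants 2 and 3 (edgeR adjusted p = 0.235). No direction was detectable, and whether depth or spread between libraries limits this was not tested.

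**Figure D4:**
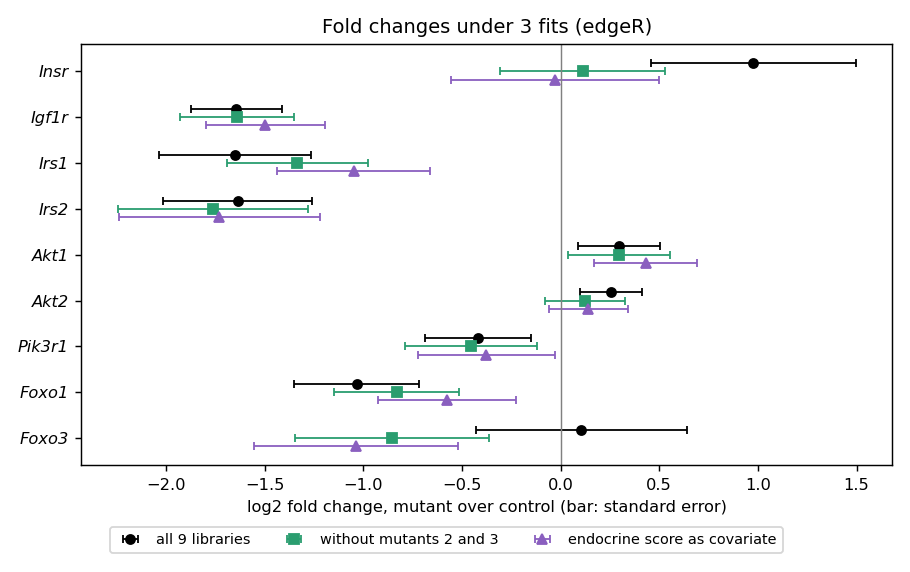
Log2 fold change of mutant over control (horizontal axis, bars show the standard error) for the 9 genes in 3 edgeR fits: all 9 libraries, without mutants 2 and 3, and one that includes the endocrine score. Igf1r stays between -1.64 and -1.50 in all 3, while Insr goes from 0.98 to 0.11 and -0.03. In the fit with the acinar score, not drawn here, Igf1r was at 0.07 and Insr at -2.12, and neither passed.

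Divided by exon length (exons merged over transcripts in GENCODE vM21, which may differ from the annotation used for counting), the order of levels in controls was Igf1r, Akt2, Akt1, Pik3r1, Foxo1, Irs1, Irs2, Insr and Foxo3. The mean was 11.8 ± 1.66 CPM per kilobase for Igf1r (SD, n = 4), 9.97 ± 1.67 for Akt2, 2.31 ± 0.441 for Irs1, 1.08 ± 0.410 for Irs2, 0.560 ± 0.260 for Insr and 0.242 ± 0.112 for Foxo3. Among neighbours in that order, only Akt2 and Akt1, and Irs1 and Irs2, had ranges over the 4 controls that did not overlap. In mutants the order of levels per kilobase was Akt2, Akt1, Igf1r, Pik3r1, Foxo1, Insr, Irs1, Irs2 and Foxo3. Igf1r held 3.77 ± 1.27 CPM per kilobase there (SD, n = 5). It was below Akt1 in all 5 libraries, though in mutant 1 the values were nearly equal (5.88 against 5.91). Insr held 1.098 ± 0.713, above Irs1 in 3 of 5. Only Akt2 and Akt1 had ranges apart among neighbours in mutants.

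For each gene, the 3 genes of most similar log2 CPM over the 9 libraries were found among those whose log2 CPM averaged 3 or more. These correlations include the difference between the groups, and the points share library makeup and depth. For Igf1r they were Prpf4b (Pearson r = 0.994), Dnajb9 (0.979) and the growth hormone receptor gene Ghr (0.974). Irs1 was closest to Bcor (0.993), Zhx1 (0.991) and Rprd1b (0.988). For Irs2 they were Dusp8 (0.977), Anks3 (0.977) and Plcb1 (0.965), and for Foxo1 Zranb1 (0.985), Thoc2 (0.981) and Fbxl17 (0.975). Insr was closest to Gm13363 (0.978), and Akt2 to Zbtb17 (0.981). Akt1, Pik3r1 and Foxo3 had leading values of 0.942 (Vps52), 0.957 (Dusp3) and 0.937 (Ccnl1).

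The rest of the pathway was read from 12 lists by role. Of 93 further pathway genes measured, 79 were tested, 13 were higher, 11 lower and 55 did not pass, with a median log2 fold change of -0.17 against 0.04 over all genes tested. Of all genes tested 20.6% were higher and 11.8% lower, and the counts by list below are to be read against these shares. The counts moved with single libraries, to 8 higher and 6 lower without control 1, 8 and 11 without control 2, 10 and 6 without control 4, 8 and 12 without mutant 2, and 6 and 7 without mutant 3. Without mutants 2 and 3 together they were 7 and 7. The other 14 were below the filter, with at most 25 counts in any library, among them Igf2, Irs3, Irs4, Foxo4 and Foxo6.

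The ligand genes did not pass. Ins1 and Ins2 had log2 fold changes of -1.97 and -1.98 (edgeR adjusted p = 0.120 and 0.123). Igf1, which encodes the ligand of the receptor that fell, had 1.91, 18.9, 5.74 and 3.80 CPM in controls and 11.6, 33.4, 30.8, 11.996 and 8.83 in mutants (log2 fold change 1.36, edgeR adjusted p = 0.135). Control 2 was above 3 of the 5 mutants. Of the further receptors, Insrr, the insulin receptor-related receptor of beta cells, had a log2 fold change of -1.26 (edgeR adjusted p = 0.197), and Igf2r, which clears IGF2, of -0.17 (edgeR adjusted p = 0.653). Of 5 tested IGF binding protein genes 0 passed, with a median log2 fold change of -0.76.

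In the list of substrates and adaptors 5 of 9 tested genes fell and 1 rose. Beside Irs1 and Irs2, those that fell were Shc1, Sos2 and Grb2. Shc1, which links the receptors to GRB2, had 183, 150, 169 and 235 CPM in controls and 120, 74.8, 90.0, 96.1 and 88.8 in mutants. The groups were apart, its log2 fold change was -0.97 (SE 0.18, edgeR adjusted p = 0.00484), and the value passed in 17 of 17 alternative fits without a marker score. Sos2, a RAS exchange factor, fell by 0.63 (edgeR adjusted p = 0.0198). Grb2, the adaptor that carries SOS, fell by 0.57 (edgeR adjusted p = 0.0428), and its call was lost without control 1, 2 or 4 or any of mutants 1 to 4 and in limma-voom. Gab1, a docking protein related to IRS, rose by 1.12 (edgeR adjusted p = 0.0233), a call lost without control 1, 2 or 3 or mutant 2 or 3.

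At the PI3-kinase step 1 of 8 tested subunit genes fell and 0 rose, where 11.8% of all genes tested fell and 20.6% rose. That gene was Pik3r3, the p55 gamma regulatory subunit, with a log2 fold change of -0.76 (edgeR adjusted p = 0.0281), lost without control 1 or 4. Pik3ca, the p110 alpha catalytic subunit, had a log2 fold change of -0.31 (edgeR adjusted p = 0.522). Of 6 tested genes that oppose PI3-kinase or AKT signalling, Inpp5k rose by 0.61 (edgeR adjusted p = 0.0378). Its call was lost without control 1, 2 or 4 or any of mutants 2 to 5, with RLE scaling, with no filter on low counts and in DESeq2 (adjusted p = 0.0562).

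Of 14 genes of the mTOR complexes and their control 3 rose and 0 fell. The share that rose is near the 20.6% of all genes tested, of which 11.8% fell. Eif4ebp1, the translation repressor that mTORC1 inactivates, had 135, 114, 195 and 141 CPM in controls and 254, 377, 370, 315 and 274 in mutants, with a log2 fold change of 1.12 (SE 0.20, edgeR adjusted p = 0.00434). Akt1s1, which encodes PRAS40, an mTORC1 inhibitor and AKT substrate, rose by 0.90 (edgeR adjusted p = 0.00455). The third was Mapkap1, which encodes the mTORC2 subunit SIN1 and rose by 0.95 (edgeR adjusted p = 0.0189, lost without control 2 or mutant 3). Each of these 3 passed also with the endocrine score as a covariate (edgeR adjusted p = 0.0417, 0.0442 and 0.0476). With the acinar score 0 of them passed, at log2 fold changes of -0.45 (Eif4ebp1), 1.08 (Akt1s1) and -0.62 (Mapkap1).

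Of 6 other AKT substrates 1 rose, Mdm2, the p53 ubiquitin ligase, by 0.42 (edgeR adjusted p = 0.0253), a call lost without control 1, 2 or 3, without any of mutants 2 to 5, with RLE scaling and with no filter on low counts. Gsk3b, the glycogen synthase kinase gene, had 162, 1031, 143 and 136 CPM in controls and 71.2 to 177 in mutants. Its log2 fold change of -1.69 did not pass (edgeR adjusted p = 0.0619), and control 2 was more than 5 times any other library.

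Known FoxO target genes moved in both directions, with 5 of 17 tested higher, 3 lower and a median log2 fold change of -0.13. Fbxo32, the atrogin-1 ubiquitin ligase, had 10.7, 12.6, 13.8 and 14.1 CPM in controls and 37.4, 49.7, 40.8, 23.7 and 30.2 in mutants. All mutants were above all controls, at a log2 fold change of 1.51 (SE 0.22, edgeR adjusted p = 0.00252). Txnip, a thioredoxin inhibitor induced by glucose, had 27.2, 26.3, 23.5 and 23.6 CPM in controls and 36.2, 155, 127, 205 and 63.3 in mutants (log2 fold change 2.22, edgeR adjusted p = 0.00717). Its 4 controls lay close together and its mutants were spread widely, with mutant 4 the highest. Bcl6, a transcriptional repressor, rose by 1.35 (edgeR adjusted p = 0.0185), lost without control 1 or 2 or mutant 3. Cdkn1b, the cell cycle inhibitor p27, had 12.3, 48.4, 11.8 and 10.8 CPM in controls and 5.998 to 7.74 in mutants, and fell by 1.63 (edgeR adjusted p = 0.0219). Without control 2 the log2 fold change of Cdkn1b was -0.88.

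The remaining 4 called FoxO targets lie outside the rule for named genes and are given because they complete the count. Klf15 had a log2 fold change of 2.16 (edgeR adjusted p = 0.0290), with 39.4 and 35.3 CPM in mutants 2 and 3 and 6.18 to 9.90 in the other mutants, against 3.02 to 7.25 in controls. Without mutants 2 and 3 its log2 fold change was 0.77 and it did not pass (edgeR adjusted p = 0.160). Its call was also lost without control 2, 3 or 4 or with mutant 2 or 3 left out alone. Cited2 rose by 0.79, Sesn1 fell by 0.43 and Sesn3 fell by 0.68 (edgeR adjusted p = 0.0446, 0.0426 and 0.0409). Leaving out control 1, 3 or 4 or mutant 1 or 3 lost each of these calls, that of Cited2 also without mutant 2 or 4, with RLE scaling and with no filter on low counts, that of Sesn1 without mutant 5 and that of Sesn3 without mutant 2.

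In the list of 10 negative regulators 2 rose and 4 fell, where 20.6% of all genes tested rose and 11.8% fell. Enpp1, a membrane protein that binds the insulin receptor and inhibits it, had 10.7, 14.2, 22.0 and 13.1 CPM in controls and 59.3, 154, 136, 130 and 44.7 in mutants, the largest log2 fold change among the 79 genes. Enpp1 had a log2 fold change of 2.80 (SE 0.42, edgeR adjusted p = 0.00255), 2.32 without mutants 2 and 3, and 2.21 in the fit with the endocrine score (edgeR adjusted p = 0.0167). In the fit with the acinar score 0 of the 79 genes passed, Enpp1 included. Grb10, an adaptor that blocks both receptors, had 34.4 to 50.01 CPM in controls and 59.7 to 79.1 in mutants (log2 fold change 0.82, edgeR adjusted p = 0.00601). Socs3, the cytokine-induced inhibitor that targets IRS proteins, had 22.0, 16.8, 24.9 and 32.3 CPM in controls and 12.4, 5.66, 10.6, 11.9 and 11.9 in mutants (log2 fold change -1.20, edgeR adjusted p = 0.00959). The tyrosine phosphatase genes Ptprf, Ptpn1 (PTP1B) and Ptpn2 fell by 0.49, 1.03 and 0.41 (edgeR adjusted p = 0.0126, 0.0199 and 0.0414). The latter pair lies outside the naming rule and completes the count. The call of Ptpn1 was lost without control 4, and that of Ptpn2 without control 1, 3 or 4 or mutant 1, 3 or 5.

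**Figure D5:**
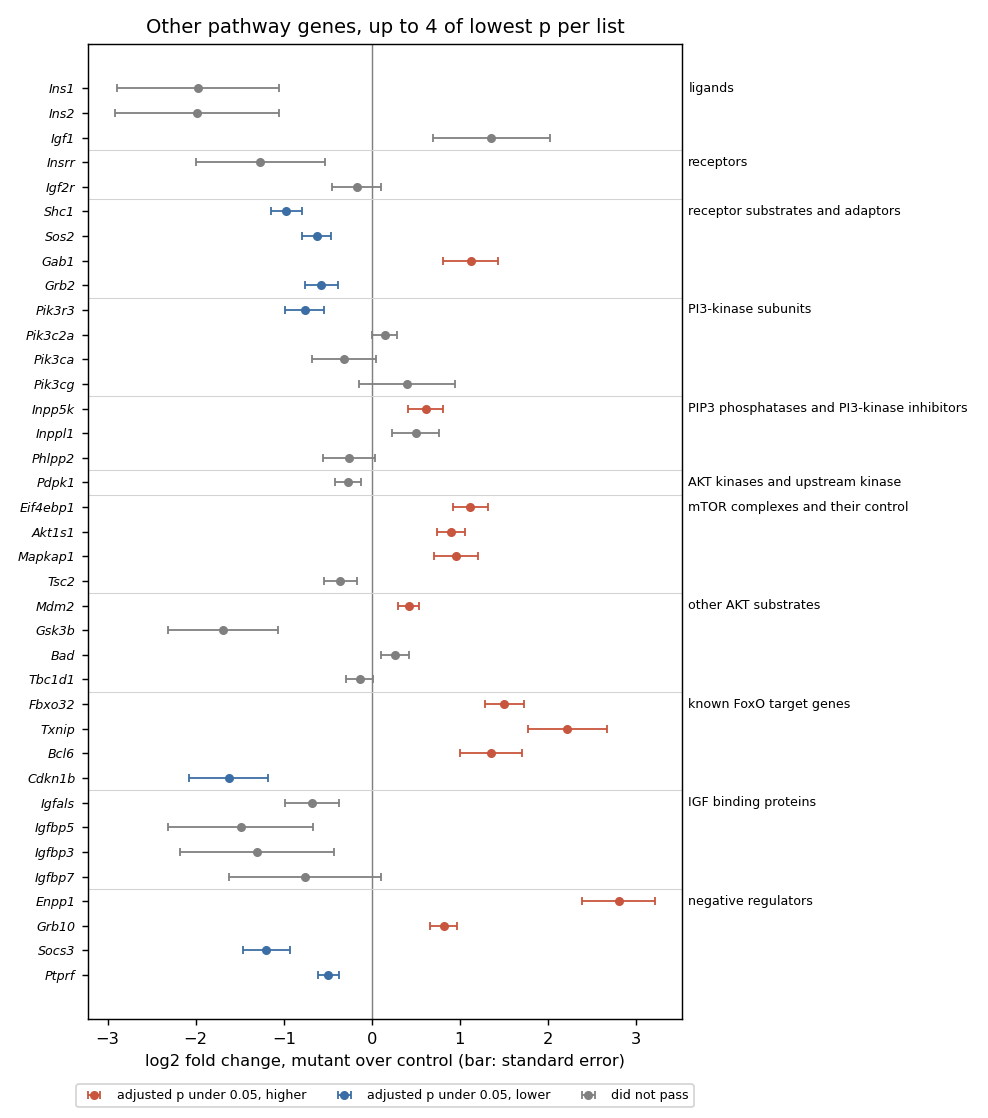
Log2 fold change of mutant over control with its standard error for up to 4 genes of lowest p in each list of pathway genes, without the 9 core genes; red and blue points passed as higher and lower, grey points did not pass. Enpp1 has the largest called rise at 2.80 and Cdkn1b the largest called fall at -1.63.

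Of the 24 called pathway genes, 8 passed in 17 of 17 alternative fits without a marker score: Shc1, Eif4ebp1, Akt1s1, Fbxo32, Txnip, Enpp1, Grb10 and Socs3. Calls lost without mutants 2 and 3 together were those of Grb2, Gab1, Pik3r3, Inpp5k, Mdm2, Bcl6, Klf15, Cited2, Cdkn1b, Sesn1, Sesn3, Ptprf and Ptpn1. The group explained 95.1% of the variance of the acinar score, the mean log2 CPM of the acinar list. With that score as a covariate 0 of the 9 core genes and 0 of the 79 others passed in edgeR, and 1 core gene had an unadjusted p under 0.05. Genotype and acinar RNA cannot be told apart in these libraries. The endocrine score, of which the group explained 40.3%, left 1 core gene lower and 5 pathway genes higher when used as a covariate.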

How the data were processed

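Counts per gene symbol were deposited by the authors as whole numbers without normalization. The submitters' processing notes name the build mm10 and STAR, RSEM, Bowtie2, HOMER, DESeq2 and R 4.1.0, giving none of them a role. The aligner, counter, annotation and use of strand for this table are not given in the sources used here. Groups and replicate numbers came from sample titles. No pair of libraries was identical, and all pairs in a group differed beyond sampling noise. Genes passing filterByExpr (12402) were compared with edgeR 4.0.16 in R 4.3.3 (quasi-likelihood test; all 9 libraries, TMM, Benjamini-Hochberg over all genes tested, threshold 0.05, two-sided). A standard error (SE) is the unshrunken log2 fold change over the root of its F, and log2 CPM used a prior count of 2. Ratios used counts plus 0.5 and exact permutation. The pipeline was tested on simulated data. Named pathway genes were up to 4 of lowest p per list, and the 3 most alike genes per core gene. Some genes that this rule picks are not reported here. Alternatives were RLE scaling, TMM without hormone and acinar genes, 2 other filters, marker scores as covariates, a replicate block, left-out libraries, DESeq2 1.42.0 and limma-voom (limma 3.58.1). Those for Pdx1 and called pathway genes were added after the data were seen. The genes and lists were chosen with earlier results of these data known. Gene positions are GENCODE vM21, and promoter sequences RefSeq (GRCm38.p6), which held windows for 8 of the 9 genes, not for Insr. The main fit did not treat replicate numbers as pairs. Correlations of deviations from the group mean were -0.05 to 0.18 for same-numbered and -0.26 to 0.22 for differently numbered libraries. So few pairs cannot exclude a shared source.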

Additional observations from a re-analysis of the deposited data

Results flagged for a closer look

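Of 78 groups of libraries examined (the 9 core genes, Pdx1, the 24 called pathway genes and the 5 ratios, each in controls and mutants), 8 held a library far from the others by Dixon's criterion on the log2 scale, where chance flags about 1 in 20 groups. Irs1 was low in control 3, at 3.94 log2 CPM (15.1 CPM against 22.4 to 23.8 in the other controls). Irs2 was low in mutant 4, at 0.19 (0.878 CPM against 2.28 to 2.81), from 6 counts. Akt1 was low in control 2, at 3.62 (12 CPM against 19.7 to 21.5). Among the called pathway genes, Pik3r3 was high in control 1, at 5.37 (41.1 CPM against 32.3 to 33.1), Cdkn1b was high in control 2, at 5.61 (48.4 CPM against 10.8 to 12.3), Sesn1 was low in mutant 5, at 3.74 (13.1 CPM against 16.7 to 18.3), and Socs3 was low in mutant 2, at 2.57 (5.66 CPM against 10.6 to 12.4). The log2 ratio of Pik3r1 to Pik3ca was low in mutant 4, at -0.71 against 0.22 to 0.58 in the other mutants.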

How the results depend on the processing

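Over 19 alternatives, Igf1r, Irs1 and Irs2 kept direction and call in the 17 without a marker score as a covariate. RLE scaling moved the median log2 fold change of all genes from 0.04 to -0.06, and higher calls from 63.6% of all calls to 51.8% (49.6% in DESeq2), with 4 core genes lower in each. The count of core genes lower was 0 with the acinar score and 1 with the endocrine score, and 3 to 4 with a library left out. Pathway genes higher were 0 with the acinar and 5 with the endocrine score, 7 without mutants 2 and 3, and 6 to 13 with a library left out. Pathway genes lower were 0 with either score, 7 without mutants 2 and 3, 17 in limma-voom, and 6 to 12 with a library left out. With the acinar score the log2 fold change turned sign for Insr (-2.12), Igf1r (0.0727), Irs1 (2.54), Irs2 (1.49), Pik3r1 (2.09), Foxo1 (0.91), Foxo3 (-2.30), Pdx1 (0.68), Shc1 (0.0542), Grb2 (0.73), Sos2 (0.00034), Pik3r3 (0.52), Inpp5k (-0.95), Mapkap1 (-0.62), Eif4ebp1 (-0.45), Bcl6 (-1.09), Klf15 (-2.44), Txnip (-3.33), Ptpn1 (0.81), Ptprf (0.30) and Enpp1 (-2.13), and none passed in edgeR. With the endocrine score Insr was -0.0293 and Foxo3 -1.04. Foxo3 was also -0.85 without mutants 2 and 3, -0.30 in limma-voom, and -0.37 to 0.46 with a library left out (below 0 without control 2, at -0.17, mutant 2 or mutant 3, at -0.12). The Irs2 to Irs1 ratio was -0.37 without mutants 2 and 3 and -0.0793 to 0.40 with a library left out, and the Akt2 to Akt1 ratio -0.15 to 0.0307. For these turns the cause was not tested. The replicate numbers share no stated source, and with a replicate block 3 core genes were lower (Foxo1 lost, Irs2 at an edgeR adjusted p of 0.0499752) and pathway genes were 9 higher and 7 lower. Over the 4 number pairs the Insr to Igf1r ratio differed by 2.39, where a sign-flip test cannot go below 0.125. Foxo3 and Irs2 had the lowest mean CPM of the core genes in both groups.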
